A study of Rattus norvegicus with 17 samples.

Results

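The 10 genes described here are markers of Kupffer cells, the resident macrophages of the liver, and of macrophages in general: Mrc1, Cd68, Cd163, Marco, Adgre1, Clec4f, Csf1r, Vsig4, C1qa and C1qb. They were chosen by gene symbol, and 8 of the 10 had a probe set under that symbol, out of 14217 genes with one on the rat genome array. Marco and Vsig4 were not analysed here. Each of the 8 measured genes had 1 probe set, so no choice between probe sets was made for them. The livers came from 17 male Harlan Sprague Dawley rats dosed by gavage once a day for 4 days, each measured on 1 array on the day after the last dose. Vehicle rats (n = 5) received corn oil alone, and 3 rats in each of 4 groups were given IPP (isopropylated phenol phosphate, a mixture used to slow burning and soften plastics) in corn oil, at 76.5, 153, 305.5 or 611 mg/kg body weight. In moles the lowest dose was 0.169 mmol/kg and the highest 1.35 mmol/kg. The age of the rats is not given in the sources used here.

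Kupffer cells line the liver sinusoids, where they take up particles, bacteria, aged red cells and modified proteins from portal blood. Their upkeep depends on signalling through the receptor encoded by Csf1r, and macrophages are known producers of complement C1q. Mannose receptor, the product of Mrc1, is made by macrophages and also by the endothelial cells that share the sinusoid wall. The RNA came from pieces of whole liver lobe, so for every difference below fewer cells of a type and less RNA per cell cannot be told apart.

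Across the 4 doses the means of the markers lay near vehicle at the lower pair and beneath it at the higher pair. At 611 mg/kg the log2 difference of Cd163 was only -0.05. At 76.5 and 153 mg/kg no marker differed from vehicle past the test. At 305.5 mg/kg all 8 measured markers had lower means than vehicle, by 0.32 to 0.49 on the log2 scale, and none passed the test. At 611 mg/kg Mrc1 fell by 0.61 ± 0.10 (SE), 34.5% lower on the linear scale, and the other 7 had lower means that did not pass. Differences are dose minus vehicle (n = 3 and n = 5 rats) from a single limma model of the 17 arrays, with SE as the error, and a call is a Benjamini-Hochberg adjusted p under 0.05 over all 14217 genes.

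Those counts were read against all genes on the array. At 305.5 mg/kg 0 of 8 markers were called by limma, where 2.22% of all genes were (1.47% as lower), and 6 of the 8 had an unadjusted p under 0.05 with a lower mean, where 7.77% of all genes did. At 611 mg/kg 1 of 8 was called, where 7.46% of all genes were (2.42% of all genes as lower), and 5 of the 8 had an unadjusted p under 0.05 with a lower mean, against 9.66% of all genes. The median log2 difference of the 8 markers was -0.39 at 305.5 mg/kg and -0.34 at 611 mg/kg, where the median over all genes was 0.01 and 0.00. Single rats moved the second of these medians, to -0.21 without 611 mg/kg rat 3 and to -0.50 without rat 1. At 76.5 mg/kg it was -0.09 and at 153 mg/kg 0.05, with 0.01 over all genes at both. The members had been chosen with earlier results of these data known, so these counts and medians describe them and carry no test of their own.

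**Figure D1:**
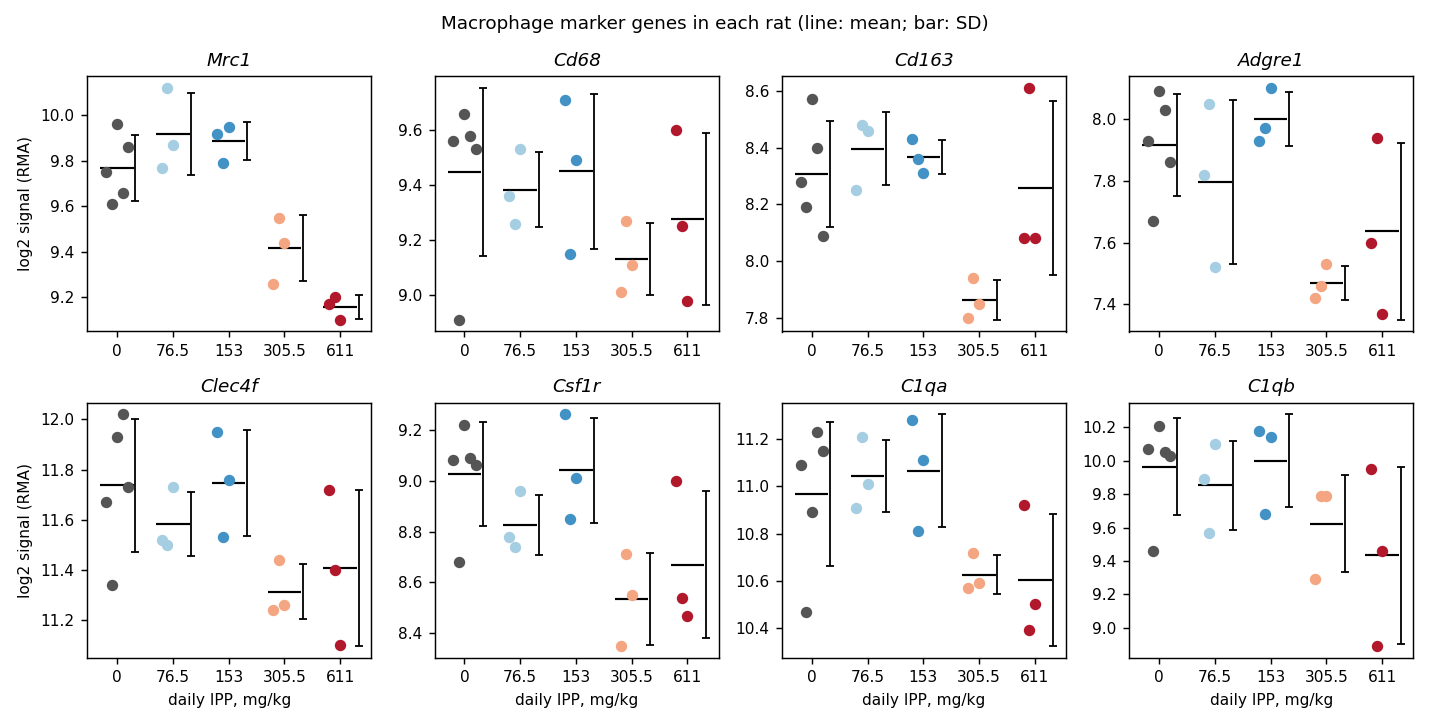
Log2 signal (RMA) of the 8 measured markers in each rat (points) by daily IPP in mg/kg, with the group mean (line) and SD (bar), n = 5 for vehicle and n = 3 per dose; the vertical axes differ and do not start at 0. All 3 rats at 611 mg/kg lie between 9.10 and 9.20 for Mrc1, under every vehicle rat, while vehicle rat 2 is the lowest vehicle rat for 7 of the 8 genes.

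Arrays from 3 rats stood apart. The median correlation with the other arrays was 0.988 in rat 2 at 76.5 mg/kg and 0.985 in both rat 3 of that group and rat 2 of the 611 mg/kg group, where the other 14 arrays had 0.990 to 0.994. On the last of these, the GAPDH controls gave 2.89 more log2 signal at the 3' end than at the 5' end, a gap that grows as RNA breaks down, and the other arrays had 0.93 to 1.56. The same gap for the actin controls was 3.83 on that array, 3.06 in rat 2 at 76.5 mg/kg and 2.90 in vehicle rat 2, and 1.93 to 2.65 on the others. In 76.5 mg/kg rat 3 the mean of 6 neutrophil markers was 1.60 above vehicle, where the other 2 rats of that group were 0.06 above and 0.11 beneath it (-0.11). The mean of 8 hepatocyte markers stayed within -0.19 to 0.06 of vehicle in every treated rat. Several of these genes had signals near the top of the scale, such as Ttr at 14.86 and Apob at 14.40. The highest value on any array was 15.36, while Hnf4a averaged 12.50. This steadiness is a description and does not test which tissue was sampled.

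The receptors that bind and take up material are described first. Mrc1 encodes the mannose receptor, an endocytic lectin that clears glycoproteins with exposed mannose. Its signal was 9.75, 9.61, 9.96, 9.66 and 9.86 in vehicle rats 1 to 5, and 9.17, 9.20 and 9.10 in the rats at 611 mg/kg. It was 9.26, 9.55 and 9.44 at 305.5 mg/kg. All 6 rats at the higher pair of doses were under the lowest vehicle rat. The log2 difference was -0.35 ± 0.10 at 305.5 mg/kg (limma, adjusted p = 0.0879, 3 of 3 rats under every vehicle rat) and -0.61 ± 0.10 at 611 mg/kg (adjusted p = 0.00197, 3 of 3 rats). The rats at 76.5 mg/kg had 9.77, 10.12 and 9.87, and those at 153 mg/kg had 9.92, 9.79 and 9.95. These 6 rats overlapped the vehicle range or lay above it, and neither dose differed from vehicle past the test (differences 0.15 and 0.12, adjusted p = 0.645 and 0.682). The call at 611 mg/kg was kept in every one of 29 alternatives, with differences from -0.70 to -0.56 and adjusted p (limma) from 0.00027 to 0.0186. Some of these could hardly lose it. The looser threshold of 0.10 used the same fit, and the mean over probe sets left the Mrc1 values unchanged. Leaving out a rat of another dose left its difference unchanged.

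The rat Mrc1 promoter is shown because Mrc1 was the marker called at 611 mg/kg, and those of Csf1r, Cd68 and Clec4f because they stand for the other roles described below. The sequences are the 250 bases before the start set for each RefSeq promoter (build GRCr8, 5′ to 3′ on the gene's strand). GAGGAA or its reverse complement TTCCTC is in capitals. The start used for Csf1r lies inside its RefSeq gene record, which begins at 56834152. Most of the bases printed for Csf1r therefore lie within that record. GAGGAA is the core of the motif bound by PU.1, the transcription factor that drives macrophage development in mice.
Mrc1, chr17:82157475-82157724, plus strand: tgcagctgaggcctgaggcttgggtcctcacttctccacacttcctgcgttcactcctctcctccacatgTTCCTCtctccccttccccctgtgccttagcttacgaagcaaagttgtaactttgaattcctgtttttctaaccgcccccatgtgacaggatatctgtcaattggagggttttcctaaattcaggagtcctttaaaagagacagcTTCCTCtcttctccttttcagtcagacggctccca
Csf1r, chr18:56834129-56834378, plus strand: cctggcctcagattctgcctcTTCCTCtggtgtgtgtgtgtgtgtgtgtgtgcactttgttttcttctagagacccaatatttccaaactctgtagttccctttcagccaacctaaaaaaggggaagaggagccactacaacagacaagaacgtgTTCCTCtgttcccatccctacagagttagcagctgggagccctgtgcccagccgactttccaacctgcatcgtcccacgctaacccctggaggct
Cd68, chr10:54882442-54882691, minus strand: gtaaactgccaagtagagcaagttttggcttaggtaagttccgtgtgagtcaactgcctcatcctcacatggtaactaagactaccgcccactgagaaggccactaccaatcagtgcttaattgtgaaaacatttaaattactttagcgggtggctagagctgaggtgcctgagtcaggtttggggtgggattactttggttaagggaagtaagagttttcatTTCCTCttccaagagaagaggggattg
Clec4f, chr4:117696408-117696657, minus strand: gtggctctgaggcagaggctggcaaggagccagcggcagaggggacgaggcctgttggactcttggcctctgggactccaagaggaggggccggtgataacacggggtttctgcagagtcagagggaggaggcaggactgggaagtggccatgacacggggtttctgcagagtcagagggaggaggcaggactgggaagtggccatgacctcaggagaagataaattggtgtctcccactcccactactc

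In a window from 250 bases before to 50 after the start, GAGGAA was found on either strand in 5 of the 8 measured markers (Mrc1, Cd68, Adgre1, Csf1r and C1qb) and in 27.6% of the 33469 RefSeq promoters of the same length. In the Mrc1 promoter TTCCTC began at positions -180 and -35 from the start used, and in the Csf1r promoter at -229 and -95. The starts used for Cd163 and Adgre1 also lie inside their gene records. The Clec4f, Cd163 and C1qa windows held no match to these letters. A match describes the letters only, and binding was not measured in these livers.

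Clec4f encodes a C-type lectin that in rodent liver is largely restricted to Kupffer cells. Its signal was 11.67, 11.34, 11.93, 12.02 and 11.73 in the vehicle rats, 11.24, 11.44 and 11.26 at 305.5 mg/kg and 11.72, 11.40 and 11.10 at 611 mg/kg. Of the 3 rats per group, 2 at 305.5 mg/kg and 1 at 611 mg/kg were under every vehicle rat. The differences were -0.43 ± 0.15 (95% interval -0.74 to -0.11, adjusted p = 0.183) and -0.33 ± 0.15 (-0.64 to -0.02, adjusted p = 0.187), and neither passed the test. Leaving out 611 mg/kg rat 3 gave -0.18 and leaving out rat 1 gave -0.49. The lower doses gave 11.52, 11.50 and 11.73 at 76.5 mg/kg and 11.95, 11.53 and 11.76 at 153 mg/kg, all inside the vehicle range.

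Cd163 encodes the scavenger receptor for complexes of hemoglobin and haptoglobin, by which macrophages recover iron. Its signal was 8.28, 8.19, 8.57, 8.40 and 8.09 in vehicle rats and 7.80, 7.94 and 7.85 at 305.5 mg/kg, where all 3 rats lay under every vehicle rat (difference -0.44 ± 0.13, 95% interval -0.71 to -0.18, adjusted p = 0.0805). At 611 mg/kg it was 8.08, 8.61 and 8.08, so rats 1 and 3 lay just under the vehicle range and rat 2 just above it. The difference there was -0.05 ± 0.13 (-0.32 to 0.22, adjusted p = 0.838). Without rat 2 alone it was -0.23, and without rat 3 it was 0.04. Rat 2, whose array had the GAPDH difference of 2.89, held the highest Cd163 value of all 17 arrays, and its part in the result was not tested beyond leaving its array out. Without the 3 arrays that stood apart the Cd163 difference was -0.44 at 305.5 mg/kg (adjusted p = 0.0166) and -0.23 at 611 mg/kg (adjusted p = 0.272). Between 611 and 305.5 mg/kg the difference of 0.39 ± 0.14 did not pass (adjusted p = 0.216).

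Csf1r, the receptor for the growth factors CSF1 and IL34, had 9.08, 8.68, 9.22, 9.09 and 9.06 in vehicle rats. It had 8.35, 8.71 and 8.55 at 305.5 mg/kg. In the 611 mg/kg group rat 1 differed from the vehicle mean by -0.02 and rats 2 and 3 had 8.54 and 8.47, with 2 of 3 rats under every vehicle rat at each dose. The log2 differences were -0.49 ± 0.14 (95% interval -0.79 to -0.19, adjusted p = 0.0886), the largest of the 8 at 305.5 mg/kg, and -0.35 ± 0.14 (-0.65 to -0.05, adjusted p = 0.138). Without 611 mg/kg rat 1 the second was -0.52 and was called (adjusted p = 0.0398). The rats at 76.5 mg/kg had 8.78, 8.74 and 8.96, and those at 153 mg/kg 9.26, 8.85 and 9.01, with no rat under the vehicle range. Il34, the gene of one of its ligands, had differences of -0.31 ± 0.09 at 305.5 mg/kg and -0.30 ± 0.09 at 611 mg/kg that did not pass (adjusted p = 0.0955 and 0.0525), while its slope over the rank of the groups did (-0.10 ± 0.02 per step, adjusted p = 0.0157). Adgre1, which encodes the adhesion receptor long used to stain mouse macrophages, had 7.93, 7.67, 8.09, 8.03 and 7.86 in vehicle rats, and 7.42, 7.46 and 7.53 at 305.5 mg/kg, all under the vehicle range. In the top group it had 7.60, 7.94 and 7.37, of which rats 1 and 3 were under that range. Its differences were -0.45 ± 0.13 (-0.73 to -0.17, adjusted p = 0.0976) and -0.28 ± 0.13 (-0.56 to 0.00, adjusted p = 0.21), the second being -0.14 without rat 3 and -0.43 without rat 2. In the lower groups Adgre1 had 7.82, 8.05 and 7.52 at 76.5 mg/kg, rat 3 being under the vehicle range, and at 153 mg/kg 7.93, 7.97 and 8.10. Without the 3 arrays that stood apart its difference was -0.45 at 305.5 mg/kg (adjusted p = 0.0162) and -0.43 at 611 mg/kg (adjusted p = 0.0361).

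Cd68 encodes a glycoprotein of macrophage lysosomes and endosomes. Its signal was 9.56, 8.91, 9.66, 9.58 and 9.53 in vehicle rats, 9.01, 9.27 and 9.11 at 305.5 mg/kg and 9.60, 9.25 and 8.98 at 611 mg/kg. No treated rat was under every vehicle rat, because vehicle rat 2 had the lowest value of all 17. The differences were -0.32 ± 0.17 (95% interval -0.68 to 0.04, adjusted p = 0.451) and -0.17 ± 0.17 (-0.53 to 0.19, adjusted p = 0.568). Without vehicle rat 2 they were -0.45 (adjusted p = 0.148) and -0.30 (adjusted p = 0.225), and the 611 mg/kg value ran from -0.33 without rat 1 of that group to -0.02 without rat 3. The lower groups had Cd68 at 9.36, 9.26 and 9.53 (76.5 mg/kg) and at 9.71, 9.15 and 9.49 (153 mg/kg).

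C1qa and C1qb encode A and B chains of C1q, the recognition part of the first complement component. C1qa had 11.09, 10.47, 10.89, 11.23 and 11.15 in vehicle rats, 10.57, 10.72 and 10.59 at 305.5 mg/kg and 10.92, 10.39 and 10.50 at 611 mg/kg. Of the 6 rats at these doses only 611 mg/kg rat 2 was under every vehicle rat. The differences were -0.34 ± 0.16 (adjusted p = 0.361) and -0.37 ± 0.16 (95% interval -0.70 to -0.03, adjusted p = 0.17). C1qb had 10.07, 9.46, 10.21, 10.05 and 10.03 in vehicle rats, 9.29, 9.79 and 9.79 at 305.5 mg/kg and 9.95, 8.89 and 9.46 at 611 mg/kg, the widest spread of the 8 genes at that dose (SD 0.53). For C1qb, rat 1 at 305.5 mg/kg and rats 2 and 3 at 611 mg/kg were under every vehicle rat, rat 3 by less than the printed decimals. The value of 8.89 again belongs to 611 mg/kg rat 2 and was the lowest of all 17 arrays. The C1qb differences were -0.34 ± 0.22 (-0.80 to 0.12, adjusted p = 0.541) and -0.53 ± 0.22 (-0.99 to -0.08, adjusted p = 0.142), and with those 3 arrays left out the second was -0.26 (adjusted p = 0.521). Without 305.5 mg/kg rat 1 the first was -0.17, and without 611 mg/kg rat 1 the second was -0.79 and was called (adjusted p = 0.0379). At the lower pair of doses C1qa ranged from 10.81 to 11.28 and C1qb from 9.57 to 10.18, inside the vehicle range except for 153 mg/kg rat 1 in C1qa. The C chain gene C1qc, which is no member, had differences of -0.37 ± 0.15 and -0.39 ± 0.15 (adjusted p = 0.27 and 0.129).

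**Figure D2:**
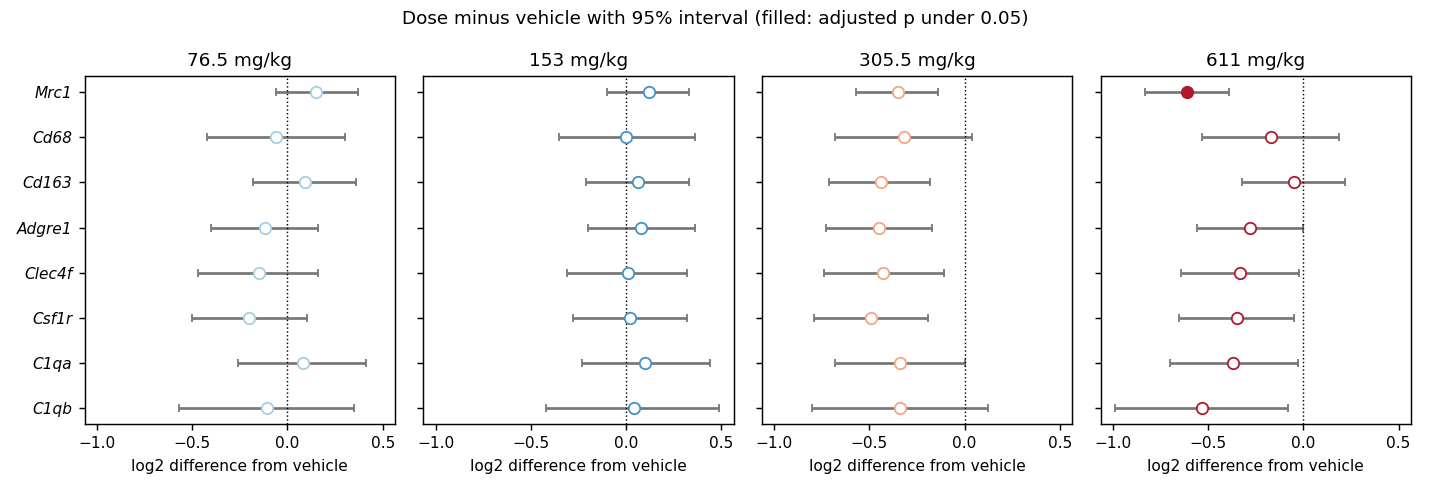
Log2 difference from vehicle of the 8 measured markers at each dose, with the 95% interval of the limma fit; filled points have an adjusted p under 0.05. At 305.5 mg/kg all 8 points lie between -0.49 and -0.32, and at 611 mg/kg they spread from -0.61 for Mrc1, the one filled point, to -0.05 for Cd163.

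At 76.5 mg/kg 0 of 8 markers were called, as were 0.267% of all genes, and at 153 mg/kg 0 of 8, with 0.746% of all genes called. No marker had an unadjusted p under 0.05 at either dose by limma, where 5.18% and 4.43% of all genes did with a lower mean. For no marker did all 3 rats lie under every vehicle rat, as happened for 3.16% and 4.42% of all genes. The differences ran from -0.20 for Csf1r to 0.15 for Mrc1 at 76.5 mg/kg and from 0.00 for Cd68 to 0.12 for Mrc1 at 153 mg/kg. The 95% intervals were wide enough to hold changes of the size seen at 305.5 mg/kg for Cd68, Clec4f, Csf1r and C1qb at 76.5 mg/kg: that of Csf1r was -0.50 to 0.10 and that of Clec4f -0.47 to 0.16. At 153 mg/kg the intervals of Cd68 (-0.35 to 0.36) and C1qb (-0.42 to 0.49) also held their differences at 305.5 mg/kg (-0.32 and -0.34). Those of the other markers did not. For Mrc1 the interval at 153 mg/kg was -0.10 to 0.33, which does not reach its mean difference of -0.35 at 305.5 mg/kg. Both doses were set against the same 5 vehicle rats, as were the higher doses.

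Over the rank of the 5 groups, Mrc1 had a negative slope of -0.15 ± 0.03 per step (limma, adjusted p = 0.00915) and was the 1 marker of 8 called, where 6.74% of all genes were. An unadjusted p under 0.05 with a negative slope was found for 6 of the 8, all but Cd68 and Cd163, against 8.81% of all genes. The other slopes ran from -0.12 ± 0.05 for C1qb to -0.06 ± 0.04 for Cd68 and Cd163, with adjusted p from 0.098 to 0.395. Without the 611 mg/kg group the Mrc1 slope was -0.09 and was not called (adjusted p = 0.403). A moderated F test for any difference among the 5 groups also called Mrc1 (adjusted p = 0.00234) and no other marker, where 3.47% of all genes were called. The other 7 had adjusted p from 0.117 for Cd163 to 0.606 for Cd68. Between 611 and 305.5 mg/kg 0 of 8 were called, with 0.324% of all genes called, and Mrc1 and Cd163 alone had an unadjusted p under 0.05, Mrc1 lower (-0.26 ± 0.11, adjusted p = 0.288, with 6.75% of all genes so) and Cd163 higher at the top dose (9.30% of all genes so).

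Rat by rat, all 8 markers were under the vehicle mean in rats 1, 2 and 3 of the 305.5 mg/kg group, and the mean over the 8 was -0.53, -0.28 and -0.38. In the rats at 611 mg/kg 7, 6 and 8 markers were under it, with means of -0.14, -0.36 and -0.51. Vehicle rat 2 was as low as these, with all 8 markers under the vehicle mean and a mean of -0.35, while the other 4 vehicle rats had 0.02 to 0.18. Its GAPDH gap was 1.55, where the other vehicle arrays had 1.13 to 1.56, and its actin gap was 2.90, above their 2.29 to 2.61. The part of RNA quality in its low values was not tested. The mean over the 8 was -0.39 ± 0.12 (SD, n = 3) at 305.5 mg/kg, -0.34 ± 0.19 (n = 3) at 611 mg/kg and 0.00 ± 0.21 (n = 5) in vehicle. Both higher doses overlapped the vehicle group in this mean through vehicle rat 2. At each lower dose the 3 rats ranged from -0.10 to 0.01 at 76.5 mg/kg and from -0.12 to 0.19 at 153 mg/kg.

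**Figure D3:**
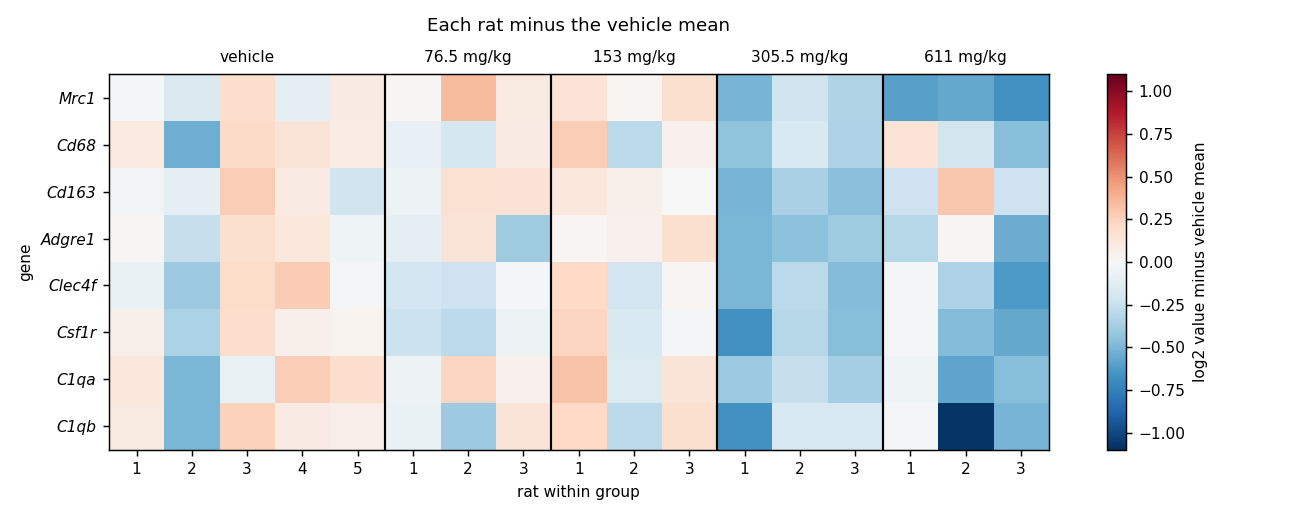
Log2 value minus the vehicle mean for each of the 8 markers (rows) in each of the 17 rats (columns, grouped by dose); blue is lower and red higher. The 3 rats at 305.5 mg/kg are blue in all 8 rows, as is vehicle rat 2, and 611 mg/kg rat 2 is red for Cd163 and darkest blue for C1qb.

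Mrc1 was set beside the mean of the other 7 markers in the same rats. In the 305.5 mg/kg rats both were lower by similar amounts, Mrc1 at -0.51, -0.22 and -0.33 and the other 7 at -0.53, -0.29 and -0.38. In the 611 mg/kg rats Mrc1 was at -0.60, -0.56 and -0.67 while the other 7 were at -0.07, -0.34 and -0.49. Rat 1 at 611 mg/kg had the widest gap, with Mrc1 0.53 further from vehicle than the other markers (-0.53). The gaps of rats 2 and 3 of that group, -0.23 and -0.18, lay inside the vehicle range of -0.25 (rat 4) to 0.22 (rat 2). Among the other treated rats, 76.5 mg/kg rat 2 had a gap of 0.43. Whether this gap differs between doses was not tested.

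**Figure D4:**
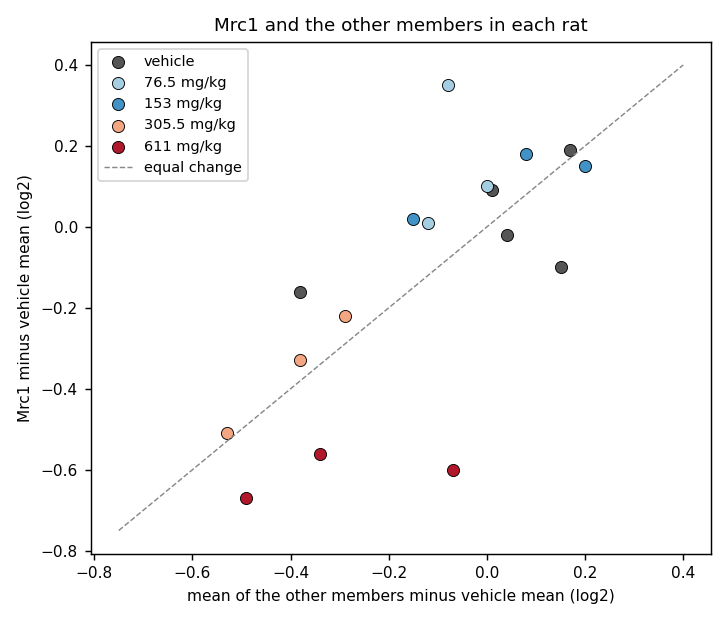
Mrc1 minus its vehicle mean against the mean of the other 7 measured markers minus theirs (both log2), with 1 point per rat coloured by group and a dashed line of equal change. The 305.5 mg/kg rats lie along the line and the 3 rats at 611 mg/kg lie beneath it, farthest for the rat whose other markers average -0.07. Vehicle rat 4 also lies beneath the line (-0.25), farther than 611 mg/kg rats 2 and 3 (-0.23 and -0.18).

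After group means were removed, Cd68, Clec4f, Csf1r, C1qa and C1qb varied together among rats, with Pearson correlations of 0.67 to 0.95 between pairs. Cd163 and Adgre1 had r of -0.21 and -0.15 with C1qb, and 0.61 with each other. All 28 pairs of markers ranged from -0.21 to 0.95 with a median of 0.44 over 17 arrays. These values describe rats that share array and RNA quality differences, and the pairs were not repeated without the arrays that stood apart. Cd68, Clec4f and Csf1r followed the mean of the other 7 most closely (r = 0.91, 0.87 and 0.86), and Cd163 and Adgre1 least (r = 0.27 and 0.38). Among all genes that are no members, those most like the mean of the 8 scaled markers over the 17 arrays were Axl (r = 0.95), C1qc (0.93), Irf8 (0.92), Fcna (0.91) and Fgl2 (0.90). Spearman's rho for these 5 was 0.89 to 0.93, and without the 2 arrays farthest from the median r was 0.89 to 0.95. They were picked for these correlations, so no p is given. With group means removed the 5 genes were Anxa3 (r = 0.92), Axl (0.91), Cd53, Crip1 and Kctd10 (0.87 each). Without the 2 farthest arrays r was 0.87 for Anxa3 and 0.90 for Axl, and fell to 0.74 for Cd53 and 0.75 for Crip1 and Kctd10.

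Of 21 further measured Kupffer cell genes, 2 fell and 0 rose at 305.5 mg/kg and 1 fell and 0 rose at 611 mg/kg, with median log2 differences of -0.15 and -0.13. Fcna, a ficolin that starts the lectin pathway of complement, fell at both doses (by 0.58 ± 0.13, adjusted p = 0.0236, and by 0.62 ± 0.13, adjusted p = 0.00818), and Axl, a receptor tyrosine kinase used in the uptake of dead cells, was the other call at 305.5 mg/kg (fell by 0.49 ± 0.13, adjusted p = 0.0486). Mertk, an uptake receptor related to Axl, had a higher mean, 0.42 ± 0.13 and 0.44 ± 0.13, that did not pass (adjusted p = 0.122 and 0.0546). Its mean was also higher at the lower doses, by 0.61 ± 0.13 at 76.5 mg/kg and 0.45 ± 0.13 at 153 mg/kg. Neither of these passed (limma, adjusted p = 0.0774 and 0.177). Of 26 pan-macrophage and myeloid genes 0 were called by limma at either dose, and 10 had a lower mean with unadjusted p under 0.05 at 305.5 mg/kg and 4 at 611 mg/kg. Of all genes 7.77% and 9.66% did so. The medians of that list were -0.23 and -0.03. Aif1, a calcium-binding protein of macrophages, had -0.55 ± 0.14 at 305.5 mg/kg (adjusted p = 0.0533) and was higher at 611 than at 305.5 mg/kg by 0.59 ± 0.16, which did not pass (adjusted p = 0.141). Between these doses 5 of the 26 were higher and 1 lower at an unadjusted p under 0.05, with 0 called by limma. The shares over all genes were 9.30% higher and 6.75% lower. Cd74, the class II invariant chain, had -0.64 ± 0.19 at 611 mg/kg (adjusted p = 0.0552).

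Lists of genes with roles in macrophages were then counted. Of all genes 2.22% were called at 305.5 mg/kg and 7.46% at 611 mg/kg. A lower mean at an unadjusted p under 0.05 was found for 7.77% and 9.66% of all genes. In whole liver their signal cannot be assigned to macrophages. Ctsl averaged 13.13 and Ctsh 12.28 over all arrays, above Clec4f, the brightest marker, at 11.58, though others such as Tfeb (8.21) were lower. Of 21 lysosome and phagocytosis genes 0 were called at 305.5 mg/kg (2 had an unadjusted p under 0.05), and at 611 mg/kg the cathepsin gene Ctsh fell by 0.29 ± 0.06 (adjusted p = 0.0107) and the proton pump subunit gene Atp6v1a rose by 0.35 ± 0.10 (adjusted p = 0.0414). The median of that list was 0.05 at both doses. Among 15 activation and interferon genes Irf1, an interferon-responsive transcription factor, fell at 153, 305.5 and 611 mg/kg (by 0.82 ± 0.17, 1.17 ± 0.17 and 0.86 ± 0.17, adjusted p = 0.0338, 0.00156 and 0.00745). The chemokine gene Cxcl9 rose by 0.70 ± 0.17 at 611 mg/kg (adjusted p = 0.0179), and the list's medians were 0.10, 0.07 and 0.16. Of 24 ligands and regulators of macrophages 0 were called at 305.5 or 611 mg/kg by limma, with 3 and 6 lower at an unadjusted p under 0.05. For the slope over the rank of the groups 1 of the 24, Il34, was called as lower and 0 as higher. Of the 11 C1 complex and early complement genes, which include C1qa and C1qb, Cr1l, a membrane regulator of complement, rose at 611 mg/kg (0.40 ± 0.10, adjusted p = 0.0237) and the other 10 did not pass. At 305.5 mg/kg 0 of the 11 were called by limma and 3 had an unadjusted p under 0.05, and the medians were -0.10 and -0.09.

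Other cell types that a piece of liver holds were measured beside the macrophage markers, since Mrc1 is shared with one of them. Of 10 sinusoidal endothelial genes 6 fell and 0 rose at 611 mg/kg, led by the scavenger receptor gene Stab2 (fell by 0.91 ± 0.13, adjusted p = 0.000703) and the inhibitory Fc receptor gene Fcgr2b (fell by 0.79 ± 0.15, adjusted p = 0.00547). The hyaluronan receptor gene Lyve1 fell by 0.71 ± 0.14 (adjusted p = 0.00681) and the junction protein gene Pecam1 fell by 0.38 ± 0.08 (adjusted p = 0.0107). The mean of the 10 was -0.45 to -0.41 in the rats at 611 mg/kg and -0.53 to -0.22 at 305.5 mg/kg, against -0.15 to 0.23 in vehicle. The part of the endothelial genes in the fall of Mrc1 was not tested. Of 12 stellate cell and fibroblast genes 2 fell at 305.5 mg/kg, Pdgfrb and Pdgfra, and Pdgfrb fell at 611 mg/kg (by 0.80 ± 0.15, adjusted p = 0.00466). The mean of those 12 was -0.50 to -0.21 and -0.45 to -0.25 in the rats of these doses.

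The remaining lists cover the other cells of a liver piece, and their counts at an unadjusted p under 0.05 take both directions. Of all 14217 genes, 1105 were lower and 815 higher at that threshold at 305.5 mg/kg. At 611 mg/kg 1373 were lower and 2061 higher. Of 8 hepatocyte genes 0 were called by limma at either higher dose, with medians of 0.01 and -0.06, and 1 had an unadjusted p under 0.05 at 305.5 mg/kg and 0 at 611 mg/kg. Of 11 T, B and NK cell genes 0 were called, with medians of -0.05 and -0.14, and 1 and 4 had an unadjusted p under 0.05. Several of them had low signals, such as Ncr1 (mean 3.96 over all arrays), Cd3d (4.84) and Cd3g (5.09), while Prf1 had 6.95. Of 8 monocyte genes 0 were called, with medians of -0.10 and -0.06 and 2 and 1 at an unadjusted p under 0.05, and Ccr2, the receptor that draws monocytes into tissue, had a mean of 4.24 over all arrays, a low signal. The 6 neutrophil genes (medians -0.12 and -0.17) and 4 dendritic cell genes (medians -0.14 and -0.15) had 0 calls, with 1 of each list at an unadjusted p under 0.05 at 611 mg/kg and none at 305.5 mg/kg. Low means were found here too, for Cxcr2 (4.48), Csf3r (5.02) and Clec9a (5.37), while S100a9 had 7.34 and Itgae 7.65. Few calls among low signals do not show that these cells were unchanged. Of 5 cholangiocyte genes Epcam rose by 0.72 ± 0.17 (adjusted p = 0.0167) and Krt7 fell by 0.43 ± 0.12 (adjusted p = 0.0332) at 611 mg/kg. Of 3 red cell genes Hbb fell by 1.63 ± 0.24 (adjusted p = 0.000689) and Alas2 fell by 1.34 ± 0.23 (adjusted p = 0.0028) at 611 mg/kg. The red cell mean was -1.37 to -0.67 in these rats, against -0.36 to 0.08 at 305.5 mg/kg.

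**Figure D5:**
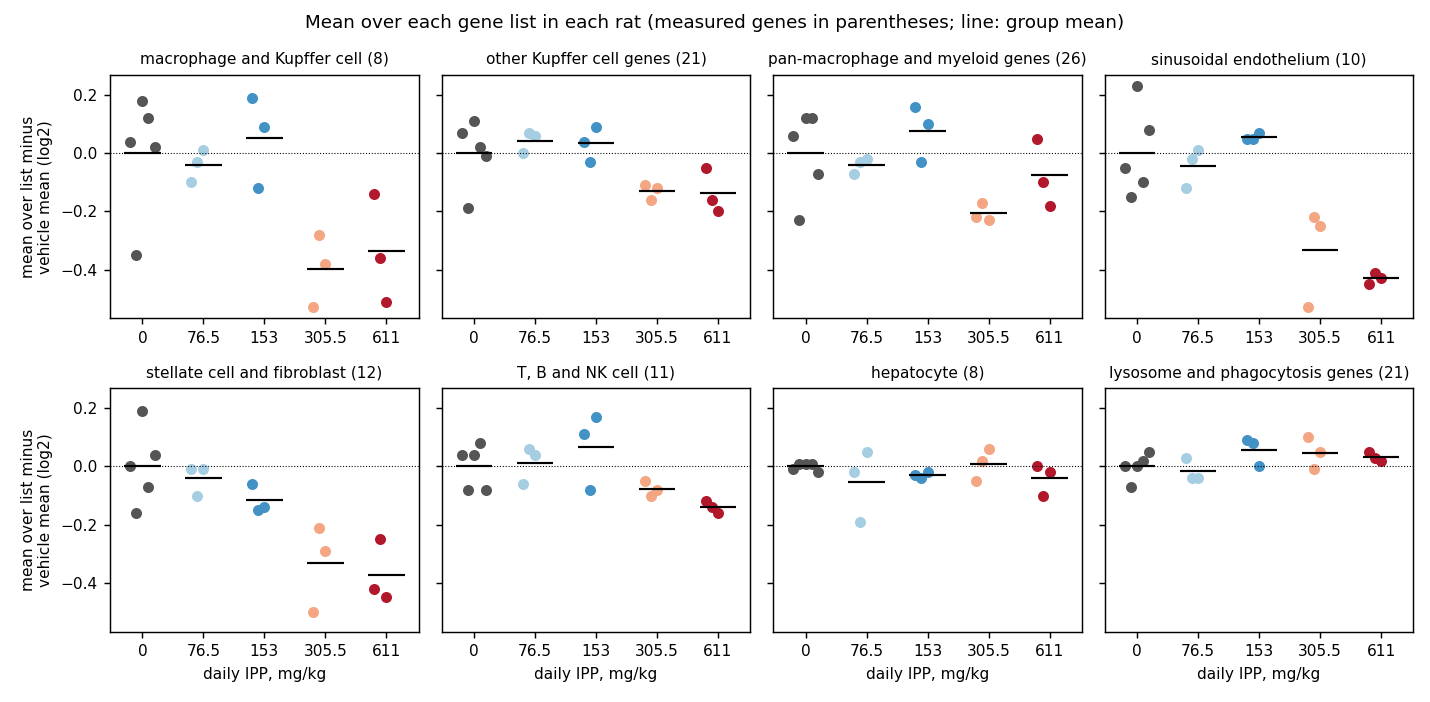
Mean over each of 8 gene lists minus the vehicle mean (log2) in each rat (points) by daily IPP in mg/kg, with the group mean as a line and the number of measured genes in parentheses. The macrophage markers, other Kupffer, sinusoidal endothelium, stellate and T, B and NK lists lie beneath 0 in all 6 rats at the higher pair of doses, the T, B and NK list by 0.16 at most (-0.16), while the hepatocyte and lysosome lists stay within -0.19 to 0.10 in every treated rat.

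Precision is set by the few arrays in each group. The p-values set each difference against the spread between these animals within groups. The labels do not say whether rats of a group shared a cage or day, and the p-values take no account of such sharing. The calls for single markers at 305.5 mg/kg depended on the arrays included: 3 of 8, Mrc1, Cd163 and Adgre1, were called as lower without the 3 arrays that stood apart, and 4, with Csf1r added, when arrays were weighted by quality. At that dose Mrc1, Cd163 and Adgre1 were also the 3 markers whose rats all lay under every vehicle rat, as did 7.34% of all genes, and at 611 mg/kg Mrc1 was the 1 marker, against 7.13% of all genes.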

How the data were processed

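Liver RNA from 17 rats was measured with 1 Affymetrix rat genome array per animal. The deposited values are log2 signals produced by RMA, per the submitters' processing notes, which corrects background, quantile-normalizes and summarises probes; no version is given in the sources used here. RMA equalises arrays, so differences are relative to the rest of each array. The lowest value was 2.61 and the highest 15.36, and array medians spanned 6.29 to 6.40. Of 31099 probe sets, 57 were controls, 20826 had 1 gene symbol in the platform annotation, 436 several and 9780 none, and 20758 matched RefSeq by gene ID. Each gene was represented by its brightest probe set.

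Group differences came from limma 3.58.1 (R 4.3.3), in 1 model with 5 groups (eBayes with trend), tested on simulated data. Alternatives covered normalization, array weights, omitted arrays and rats, variance moderation and a replicate block. The members and lists were chosen with earlier results of these data known. All 10 members are named. Up to 4 genes per list with the smallest p at 611 mg/kg, or each that passed if there were at most 5, and the 5 genes most correlated with the members are also named. Called or low-p list genes at other doses were named after their values were seen. Numbers were not used as pairs. Same-numbered rats of different groups had a median r of 0.011 over 30 pairs (-0.259 to 0.399), and differently numbered ones -0.015 over 84 pairs. Such a median can miss a pattern in a single number. Rat 2 had its group's widest actin gap in vehicle (2.90) and at 76.5 (3.06), 153 (2.65) and 611 mg/kg (3.83). At 305.5 mg/kg it did not (2.39). It was lowest of its group for Cd68, Csf1r and C1qb in vehicle and at 76.5 and 153 mg/kg. At 305.5 mg/kg it was lowest for none of these, and at 611 mg/kg for C1qb alone. The cause was not tested.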

Additional observations from a re-analysis of the deposited data

Results flagged for a closer look

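In the 5 vehicle rats, rat 2 lay far from the other 4 for 2 of 9 quantities examined (the 8 markers and their mean). Its Cd68 value of 8.91 and its C1qb value of 9.46 were each separated from the nearest vehicle rat by a gap that took up most of the group's range, beyond Dixon's 95% critical value. Chance marks about 1 in 20 groups in this way, and the 9 quantities come from the same rats. Without vehicle rat 2 the Cd68 difference was -0.45 at 305.5 mg/kg and -0.30 at 611 mg/kg, and the C1qb differences were -0.47 and -0.66, none of them called (limma, adjusted p = 0.148, 0.225, 0.354 and 0.0727).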

How the results depend on the processing

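No marker was called at 76.5 or 153 mg/kg, or between 611 and 305.5 mg/kg, in any of 29 alternatives each. Without the 3 arrays that stood apart the 76.5 mg/kg group holds 1 rat, assumed to vary like the other groups, and every marker there has an adjusted p of 1, so that alternative says nothing about stability at that dose. At 305.5 mg/kg the count of called markers was 0 and became 1 with quantile normalization repeated, 4 with array weights, 3 without the 3 arrays that stood apart, 3 with only the 2 groups compared and 4 at an adjusted p under 0.10. At 611 mg/kg it was 1 and became 2 with array weights and 2 without the 3 arrays. For the slope it was 1 and became 2 with array weights, 2 without the 3 arrays, 2 at an adjusted p under 0.10 and 0 without the 611 mg/kg group. For any difference among the groups it was 1 and became 4 with array weights, 3 without the 3 arrays and 2 with the GAPDH covariate. Leaving out single rats gave 0 to 1 called markers at 305.5 mg/kg, 1 to 3 at 611 mg/kg, 1 to 2 for the slope and 1 to 2 for any difference. The rats that moved these counts were, at 305.5 mg/kg, vehicle rat 2 (Csf1r called), 76.5 mg/kg rat 3 (Adgre1) and 611 mg/kg rat 2 (Cd163), each giving 1. At 611 mg/kg they were vehicle rat 2 (C1qa added, 2 called) and 611 mg/kg rat 1 (Csf1r and C1qb added, 3 called). For the slope the same rats gave 2 each, and 611 mg/kg rat 2 gave 2 for any difference. The cause was not tested. The median of the 8 markers ranged from -0.47 to -0.35 at 305.5 mg/kg and from -0.50 (without 611 mg/kg rat 1) to -0.21 (without 611 mg/kg rat 3) at 611 mg/kg. With a replicate block the counts were 0 at 305.5 mg/kg and 1 at 611 mg/kg, and the block changed no call. The mean over probe sets altered no marker's value, since each has 1 probe set.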
